A study of Homo sapiens with 11 samples.

Results

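Cadherins are the adhesion proteins that join neighbouring cells through calcium-dependent contacts, and the balance among them is a classical description of epithelial and mesenchymal cell states. The genes examined here number 10 of the 58288 in the RNA-seq data and 10 of the 19645 protein-coding genes that could be joined to the hg19 annotation. They are 5 cadherins (CDH1, CDH2, CDH6, CDH11 and CDH16), the intermediate filament gene VIM, and the transcription factor genes SNAI2, ZEB1, ZEB2 and TWIST1. The 10 genes were taken by name and not by a cut on a measured value, but with earlier results of these data known. All 10 were found in the RNA-seq data and in the annotation.

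The cells were HK2, an immortalised line of human proximal tubule epithelium, grown in DMEM-F12 medium with 10% FBS, 1% penicillin-streptomycin and 0.05% DMSO. The study profiled them in 1 condition, so no treated or mutant group exists and the comparisons below are among genes. Each of 3 histone marks, H3K4me3, H3K27ac and H3K27me3, was profiled by ChIP-seq in 2 replicates, and RNA was sequenced as 2 libraries. Nothing in the labels states that replicates came from separate cultures, so the spread between them may be technical. HK2 is a single immortalised line and not native tubule. Of 12 proximal tubule markers, 3 reached 1 FPKM (fragments per kilobase of transcript, scaled to the depth of the library) in both libraries. The share over protein-coding genes was 58.8%. The 3 were GGT1 at 64.1 and 58.1 FPKM, MME at 8.31 and 7.95 and SLC5A2 at 1.56 and 2.36. The endocytic receptor gene LRP2 and the organic anion transporter genes SLC22A6 and SLC22A8 were listed at 0 in both. No marker of the distal nephron (5 genes), podocyte (3 genes) or endothelium (4 genes) reached 1 FPKM, against the same 58.8%.

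As background, E-cadherin (CDH1) holds epithelial sheets together, and its loss together with a gain of N-cadherin (CDH2) is the cadherin switch of epithelial-mesenchymal transition. The SNAI and ZEB proteins are zinc-finger repressors that bind E-boxes, a short sequence motif, in the CDH1 promoter, and TWIST1 is a basic helix-loop-helix factor of the same network. In the human kidney, proximal tubule cells are known for N-cadherin and cadherin-6, while E-cadherin is most abundant in distal segments and cadherin-16 is a kidney-specific cadherin of tubules. H3K4me3 marks promoters, H3K27ac marks active promoters and enhancers, and H3K27me3 is laid down by Polycomb complexes at repressed genes. A promoter with both H3K4me3 and H3K27me3 is called bivalent.

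The 250 bases before the canonical start site were read from the GRCh37 genome for 8 of the genes (CDH2, CDH6, CDH11, VIM, SNAI2, ZEB1, ZEB2 and TWIST1) and searched on both strands for the E-box CAGGTG, whose other strand reads CACCTG. The sequence of ZEB1 is shown because it holds the motif, and that of CDH6 because this gene had the highest level of the cadherins and lacked it. Capitals mark the motif. The windows are chr10:31607895-31608144 (plus strand) for ZEB1 and chr5:31193543-31193792 (plus) for CDH6.
ZEB1: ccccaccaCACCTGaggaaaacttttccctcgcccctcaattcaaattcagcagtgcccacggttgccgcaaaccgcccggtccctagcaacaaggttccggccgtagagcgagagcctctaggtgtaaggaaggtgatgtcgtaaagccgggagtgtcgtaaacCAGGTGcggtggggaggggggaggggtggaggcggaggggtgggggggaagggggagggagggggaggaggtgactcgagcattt
CDH6: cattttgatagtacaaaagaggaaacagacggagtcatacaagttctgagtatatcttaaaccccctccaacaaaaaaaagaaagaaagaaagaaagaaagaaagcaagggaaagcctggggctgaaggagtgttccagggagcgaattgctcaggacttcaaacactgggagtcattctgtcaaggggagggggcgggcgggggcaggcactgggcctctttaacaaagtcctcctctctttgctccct

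In ZEB1 the motif lay at bases 242 to 237 and 85 to 80 before the start site. The other 7 genes searched had no match in this window. Windows before other starts were not searched. In ZEB2, transcripts that start 1669 to 2700 bp downstream held 81.9% and 71.6% of the RNA signal in libraries 1 and 2. In VIM the canonical transcript VIM-209 held 81.9% in library 1 and 0.110% in library 2. Among 19546 promoters of protein-coding genes with a complete window, 17.3% held at least 1 match, so a count of 1 gene among 8 was near the share of all genes. At least 2 matches, as in ZEB1, were found in 2.44% of promoters. The looser motif CANNTG, which includes the first, was found in 56.6% of the promoters. The CpG count of the window was 24 for CDH11 and 17 for CDH2, against a median of 18 over all promoters. It was 4 for CDH6, and 15.6% of promoters had fewer. A match describes the letters in this window and not the binding of a factor.

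The RNA levels of the 10 genes ran from VIM at the top to CDH11 at the foot. Of the 10 genes, 8 reached 1 FPKM in both libraries, against 58.8% of protein-coding genes. The median over the 10 genes was 4.02 FPKM, close to the 3.32 of all protein-coding genes. FPKM is scaled for transcript length, so levels of different genes can be set beside each other. In bulk RNA, fewer cells that transcribe a gene and less RNA per cell cannot be told apart.

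**Figure D1:**
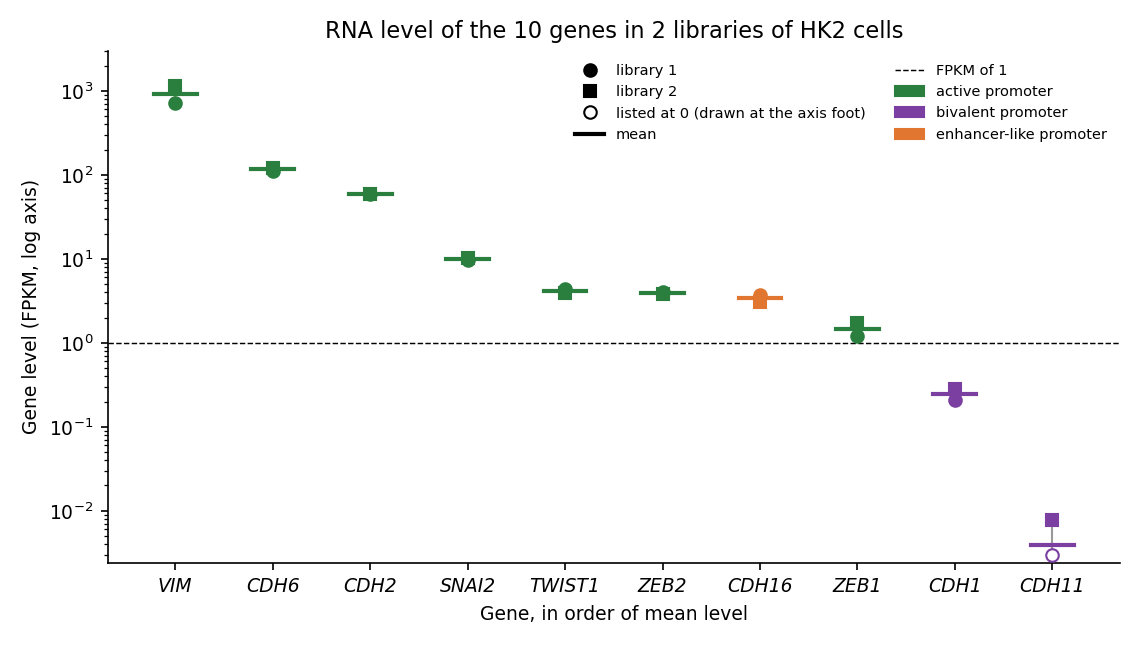
RNA level of each gene in FPKM on a log axis, with a circle for library 1, a square for library 2 and a bar for their mean, coloured by promoter class. VIM, CDH6 and CDH2 lie highest, CDH1 and CDH11 lie below the dashed line at 1 FPKM, and the open circle of CDH11 stands for a value listed at 0.

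CDH6, cadherin-6, had the highest level of the cadherins, with 112 FPKM in library 1 and 120 in library 2 (116 ± 5.48, SD, n = 2). This placed it above 97.9% of protein-coding genes. CDH2 had 59.3 and 59.7 FPKM (59.5 ± 0.260, SD, n = 2), above 95.2% of protein-coding genes. The library ranges of the 2 genes did not overlap, and CDH6 was 1.89-fold and 2.01-fold above CDH2. The CDH6 total includes the retained-intron transcript CDH6-202, at 39.7 and 42.9 FPKM, while every CDH2 transcript in the RNA-seq data is coding. The coding transcript CDH6-201 alone was at 67.1 and 71.8 FPKM, closer to the CDH2 total, so these folds depend on transcripts that are not coding. Together CDH6 and CDH2 held nearly all of the signal of the 5 cadherins. Outside these 5, CDH24 was at 23.2 and 22.9 FPKM. CDH6 took 63.9% and 65.5% of the summed FPKM of the 5 cadherins in libraries 1 and 2, and CDH2 took 33.8% and 32.6%.

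CDH16 was at 3.71 and 3.07 FPKM (3.39 ± 0.457, SD, n = 2), in the middle of the distribution over protein-coding genes, at the percentile of 50.2. CDH1 was at 0.210 and 0.283 FPKM (0.247 ± 0.0520, SD, n = 2). These values rest on 5.00 and 3.34 kb of aligned sequence over the whole gene, so CDH1 was detected at a trace in both libraries. CDH11, a cadherin of mesenchymal and osteoblastic cells, was listed at 0 in library 1 and at 0.00786 in library 2, the latter from 0.265 kb of aligned sequence. Neither CDH1 nor CDH11 came near 1 FPKM in any library.

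The cadherin pair most used to describe the switch was therefore far apart. CDH2 exceeded CDH1 by 282.5-fold in library 1 and 210.6-fold in library 2, a log2 ratio of 8.14 and 7.72 (7.93 ± 0.30, SD, n = 2). The groups of values did not overlap. The CDH1 total of library 2 includes retained-intron transcripts, of which CDH1-204 held 44.3%, while every CDH2 transcript in the RNA-seq data is coding. The coding transcript CDH1-201 was at 0.178 FPKM in library 1 and 0.0956 in library 2, a fall where the CDH1 total rose. The size of these folds, and which library has the larger one, therefore depend on transcripts that are not coding. A two-sided exact permutation test over the libraries gave p = 0.333, the smallest p that this test allows for 2 values against 2, and it takes no account of both genes being read in the same libraries. With 1 added to each FPKM the mean log2 ratio was 5.60, because the addition raises the low CDH1 values.

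VIM encodes vimentin, the main intermediate filament protein of mesenchymal and cultured cells. It was at 709 FPKM in library 1 and 1133 in library 2 (921 ± 299.7 FPKM, SD, n = 2), above 99.9% of protein-coding genes. The libraries differed by 1.60-fold. Of 85 protein-coding genes within 2-fold of the mean of VIM, 1.18% differed by as much between the libraries, which is VIM alone. Its lower value still lay 5.92-fold above the higher value of CDH6.

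The transcription factors were transcribed at much lower levels than VIM. SNAI2, a Snail-family repressor also called Slug, led them with 9.75 and 10.2 FPKM (9.97 ± 0.306, SD, n = 2). TWIST1 had 4.34 and 3.88 FPKM (4.11 ± 0.322, SD, n = 2). ZEB2 had 4.06 and 3.78 FPKM (3.92 ± 0.202, SD, n = 2), and ZEB1 had 1.22 and 1.74 (1.48 ± 0.369, SD, n = 2). Among neighbours in the order of the 10 genes, TWIST1 and ZEB2 were the single pair whose library ranges overlapped, and their order is not resolved. The gap between ZEB2 and CDH16 was also narrow, at 1.16-fold between their means.

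At the chromatin level, 7 of the 10 genes had an active promoter, which means a 200-bp bin within 1 kb of an annotated start site that was covered by H3K4me3 and H3K27ac peaks of both replicates and free of H3K27me3. Over protein-coding genes this share was 52.0%. The 7 were CDH2, CDH6, VIM, SNAI2, ZEB1, ZEB2 and TWIST1. CDH1 and CDH11 were bivalent, against 5.04% of protein-coding genes. CDH16 was enhancer-like, with H3K27ac but no shared H3K4me3, a class that holds 1.74% of protein-coding genes. An H3K27me3 peak within 1 kb of a start site in both replicates was found at 2 of the 10 genes, CDH1 and CDH11, against 11.4% of protein-coding genes. None of the 10 was poised, repressed or without any mark, classes that hold 12.7%, 4.09% and 24.4% of protein-coding genes.

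Each mark was also counted without the bin rule, as any overlap with a peak in both replicates. H3K4me3 lay within 1 kb of a start site at 9 of the 10 genes, all but CDH16, against 70.3% of protein-coding genes, and over the gene body at all 10, against 73.1%. H3K27ac lay within 1 kb of a start site at 9, all but CDH11, against 55.0%, and over the gene body at the same 9, against 59.4%. H3K27me3 lay over the body of CDH1 and CDH11, against 16.1% of protein-coding genes. At CDH1 the start site with H3K27ac lies far inside the gene.

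**Figure D2:**
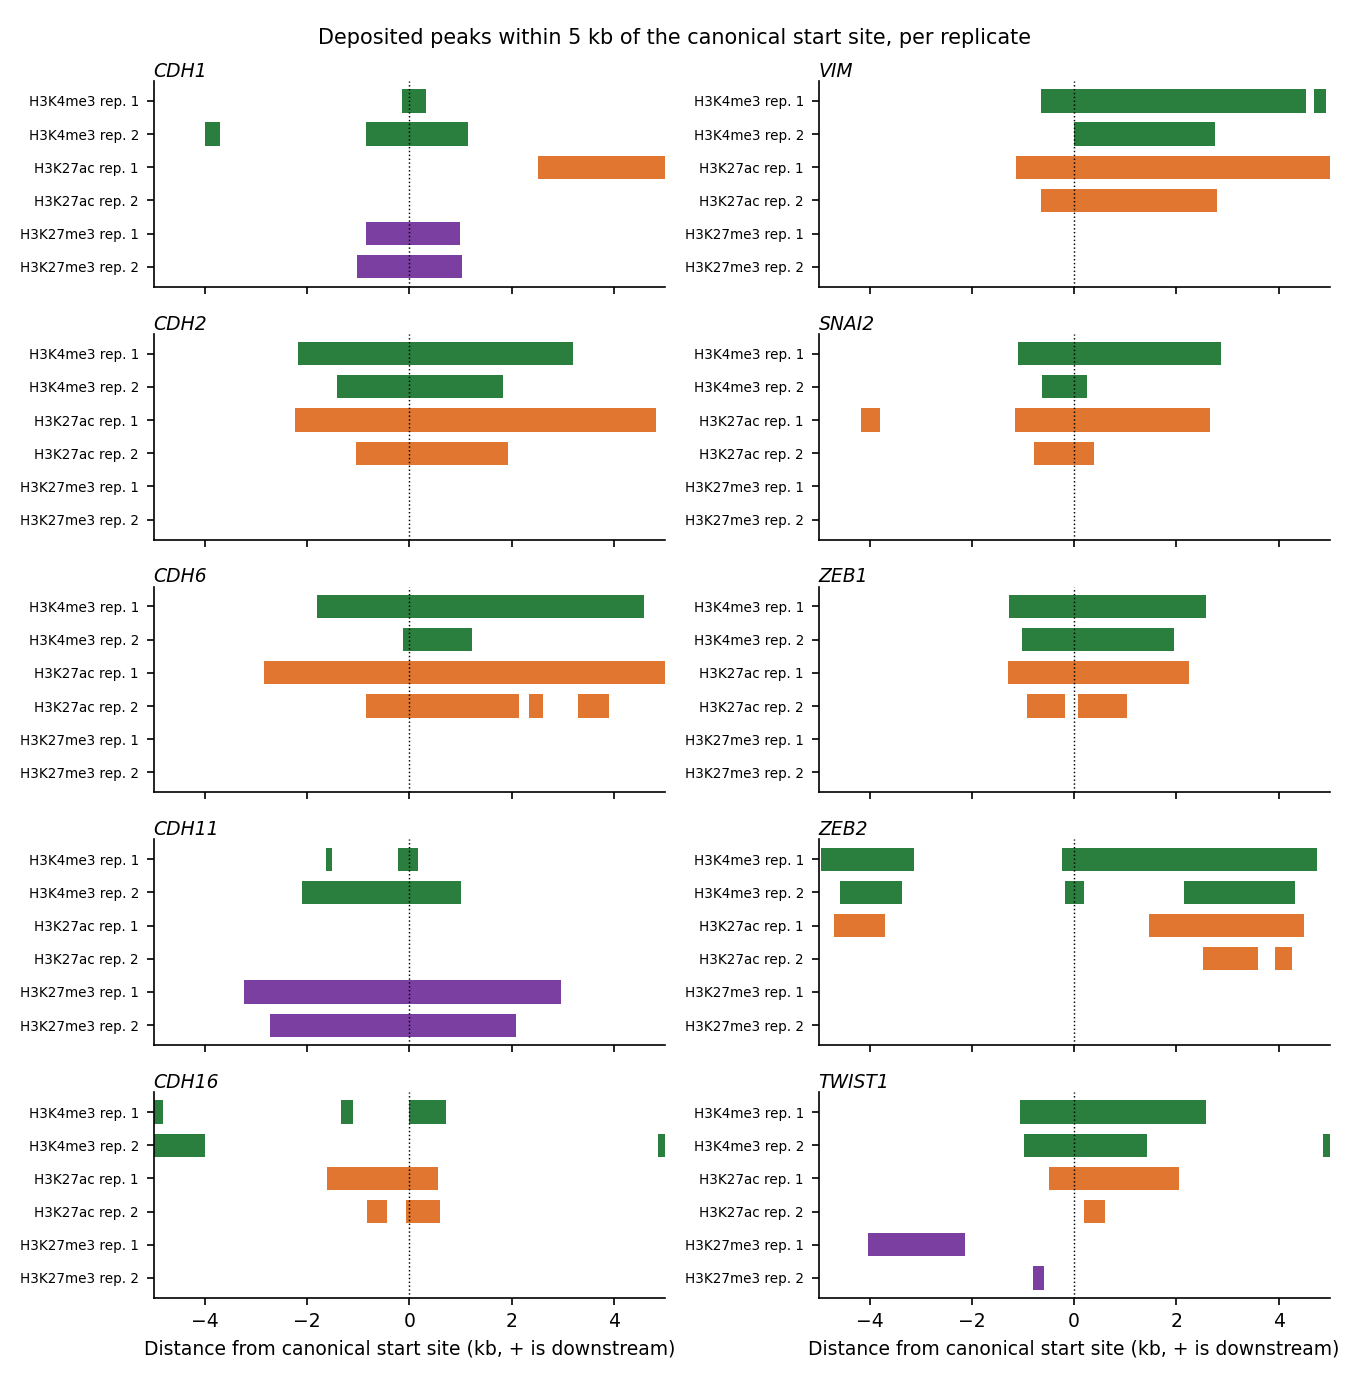
Deposited peaks within 5 kb of the canonical start site of each gene, drawn to scale in the direction of transcription, with 1 line for each replicate of H3K4me3 (green), H3K27ac (orange) and H3K27me3 (purple). H3K27me3 covers the start sites of CDH1 and CDH11, where no H3K27ac peak lies, and H3K4me3 with H3K27ac covers those of CDH2, CDH6 and SNAI2 in both replicates.

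The E-cadherin gene CDH1 (ENSG00000039068, hg19 chromosome 16 from 68771195 to 68869440, plus strand) carried H3K4me3 across its canonical start site in both replicates. In replicate 1 this peak ran from -146 to 336 bp relative to the start, and in replicate 2 from -845 to 1156 bp. H3K27me3 ran from -839 to 999 bp and from -1032 to 1027 bp. The marks of both replicates shared 600 bp of bivalent chromatin, flanked by 600 bp of H3K27me3 alone on either side.

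H3K27ac was not found within 1 kb of the canonical CDH1 start in either replicate, and the nearest peaks lay 2512 and 29675 bp away. The gene body did hold H3K27ac, with 5 and 3 peaks. One of these lay within 1 kb of the start of a retained-intron transcript, CDH1-204, at 85953 bp into the gene, and ran from 85376 to 87348 bp in replicate 1 and from 86416 to 86746 bp in replicate 2. CDH1-204 was listed at 0 in library 1 and at 0.125 FPKM in library 2. A long noncoding RNA gene of the opposite strand, ENSG00000260798 (68848233 to 68857429), starts under the same replicate 1 peak, from 68856571 to 68858543. It was listed at 0 in both libraries, so the peak cannot be tied to either gene. Among bivalent genes, whose median was 0.100 FPKM, CDH1 lay at the percentile of 62.9.

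CDH11 (ENSG00000140937, chromosome 16 from 64977656 to 65160015, minus strand) had the widest H3K27me3 of the 10 genes at its start, from -3228 to 2965 bp in replicate 1 and from -2727 to 2085 bp in replicate 2. It had no H3K27ac peak anywhere over its 182360 bp, and the nearest lay 388679 and 403391 bp from the start. H3K4me3 differed between the replicates, with a peak of 392 bp in replicate 1 and 3112 bp in replicate 2. When only peaks of at least 400 bp were kept, CDH11 was repressed and no longer bivalent. At the single 5′-most start site it had no class at all. CDH1 remained bivalent under every setting tried.

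CDH2 (ENSG00000170558, chromosome 18 from 25512843 to 25757910, minus strand) had an active region of 3000 bp at its start. Its H3K4me3 peak was 5369 bp wide in replicate 1 and 3249 bp in replicate 2, wider than 97.9% and 98.1% of the widest promoter peaks of genes that have one. Over the gene body lay 19 and 9 H3K27ac peaks, covering 14.8% and 4.53% of its length. H3K27me3 was distant, with the nearest peaks 676258 and 990297 bp from the start.

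CDH6 (ENSG00000113361, chromosome 5 from 31193793 to 31329253, plus strand) had an active region of 1400 bp. Its H3K4me3 peak was 6396 bp wide in replicate 1, wider than 99.1% of those of other genes, but 1343 bp in replicate 2, wider than 46.5%. H3K27ac at the start was wide in both replicates, 8350 and 2998 bp, at percentiles of 96.5 and 94.7. The number of H3K27ac peaks over the gene body was 17 in replicate 1 and 3 in replicate 2. Replicate 1 had more and wider H3K27ac peaks over the whole genome, 57761 peaks of median width 1357 bp against 38639 of 657 bp, and the part of this difference in the count at CDH6 was not tested.

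CDH16 (ENSG00000166589, chromosome 16 from 66942025 to 66952820, minus strand) had H3K27ac at its start in both replicates, from -1615 to 569 bp and, in replicate 2, from -66 to 607 bp with a second peak from -828 to -439 bp. H3K4me3 within 1 kb was found in replicate 1 only, from -10 to 717 bp, and the nearest H3K4me3 peak of replicate 2 lay 3998 bp away. Replicate 1 alone, or peaks of either replicate, made CDH16 active. It was the single gene of the 10 whose class differed between the replicates, against 24.2% of protein-coding genes.

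VIM (ENSG00000026025, chromosome 10 from 17270240 to 17279592, plus strand) is a short gene of 9353 bp, much of which lay under active marks. H3K27ac covered 65.7% of it in replicate 1 and 29.9% in replicate 2, and H3K4me3 covered 50.8% and 32.5%. The active region of both replicates was 2800 bp. No H3K27me3 peak lay closer than 58758 and 224626 bp to the start.

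SNAI2 (ENSG00000019549, chromosome 8 from 49830157 to 49834299, minus strand) had an active region of 800 bp. H3K27me3 lay outside the promoter window, with the nearest peaks 6807 and 9288 bp from the start. ZEB1 (ENSG00000148516, chromosome 10 from 31607424 to 31818742, plus strand) had an active region of 800 bp before and one of 1000 bp after its canonical start. Its H3K27ac peak of 3542 bp in replicate 1 was broken into 748 and 960 bp in replicate 2.

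ZEB2 (ENSG00000169554, chromosome 2 from 145121931 to 145278624, minus strand) was marked away from its canonical start. H3K27ac ran from 1472 to 4501 bp downstream in replicate 1 and from 2530 to 3591 and 3923 to 4257 bp in replicate 2, with none within 1 kb of the canonical start. At the canonical start itself H3K4me3 stood alone, so with that start only, an alternative chosen after the data were seen, ZEB2 was poised. Most of the RNA was also assigned to transcripts that start inside the gene. The 16 transcripts that start between 1669 and 2700 bp downstream held 81.9% and 71.6% of the FPKM of ZEB2, and the 14 that start within -281 to 113 bp held 5.56% and 12.5%.

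TWIST1 (ENSG00000122691, chromosome 7 from 19060614 to 19157259, minus strand) had the least active chromatin of the 7 genes, 1 region of 400 bp set in a wider stretch of H3K4me3. H3K27ac spanned 2549 bp in replicate 1 and 426 bp in replicate 2. H3K27me3 came near the gene in both replicates but not at the same place, from -4031 to -2140 bp in replicate 1 and from -812 to -595 bp in replicate 2. Counting peaks of either replicate therefore raised the number of genes with H3K27me3 at a start from 2 to 3.

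Promoter class and RNA level were set side by side over all protein-coding genes, as the study related marks to expression. The median level was 11.7 FPKM for active, 2.62 for poised, 0.552 for enhancer-like and 0.100 for bivalent promoters, and 0 for repressed promoters. The active genes of the set were spread over the whole range of their class. VIM, CDH6 and CDH2 lay above 99.8%, 96.1% and 91.1% of active genes. SNAI2 lay near the middle at 44.5%, TWIST1 and ZEB2 lay at 20.3% and 19.3%, and ZEB1 lay at 8.64%. CDH16 lay at 80.7% of enhancer-like genes and CDH11 at 17.4% of bivalent genes. None of the 10 was both bivalent and at 1 FPKM or more, a combination found in 0.743% of protein-coding genes.

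**Figure D3:**
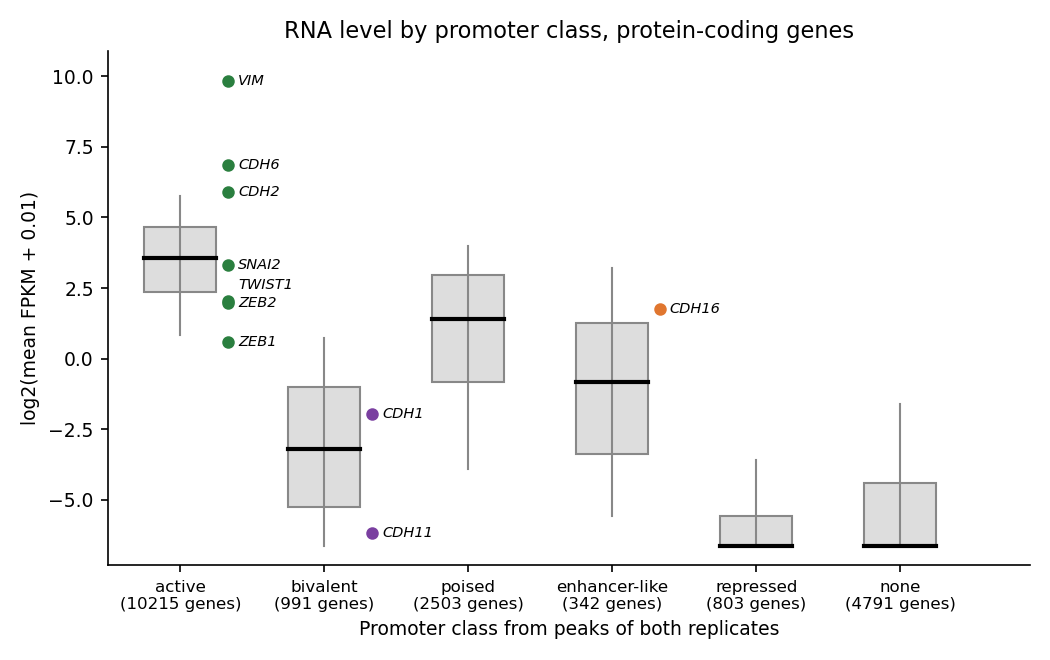
Mean FPKM of protein-coding genes by promoter class, as log2 of FPKM plus 0.01, with the box from the lower to the upper quartile, the black bar at the median and the grey line from the 10th to the 90th percentile. Points are the 10 genes, of which VIM, CDH6 and CDH2 lie above the box of the active class, ZEB1, ZEB2 and TWIST1 below it and SNAI2 within it.

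The deposited values also divide each gene among its annotated transcripts, which share reads. SNAI2-201 held 97.7% and 100% of SNAI2, and TWIST1-201 held 95.5% and 90.6% of TWIST1. CDH6-201, the canonical coding transcript, had 67.1 and 71.8 FPKM, and the retained-intron transcript CDH6-202, which starts 122564 bp downstream, had 39.7 and 42.9. CDH6 kept these proportions in both libraries, at 59.9% and 60.0% for CDH6-201. CDH2-201 had 37.2 and 47.0 FPKM, and CDH2-202, which starts 140545 bp downstream, had 20.6 and 11.0. H3K27ac shared by both replicates lay between 130494 and 132093 bp into CDH2, within 1 kb of another annotated start, at 131534 bp, whose transcript was at 0.215 FPKM and 0.

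VIM was divided in opposite ways by the libraries. In library 1 the canonical VIM-209 held 580 FPKM, or 81.9% of the gene, and VIM-201 held 7.05. In library 2 VIM-201 held 861 FPKM, or 76.0%, and VIM-209 held 1.24. A further transcript with the start of VIM-201, the nonsense-mediated decay transcript VIM-206, was at 4.77 and 194 FPKM. VIM-209 starts 1037 bp upstream of VIM-201, and H3K4me3 and H3K27ac of both replicates covered the stretch between these starts, except that H3K4me3 of replicate 2 began 6 bp after the canonical start. Summed over the 6 transcripts that start between 0 and 1050 bp, VIM had 692 and 1113 FPKM. How the reads shared by these transcripts were divided was not tested.

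**Figure D4:**
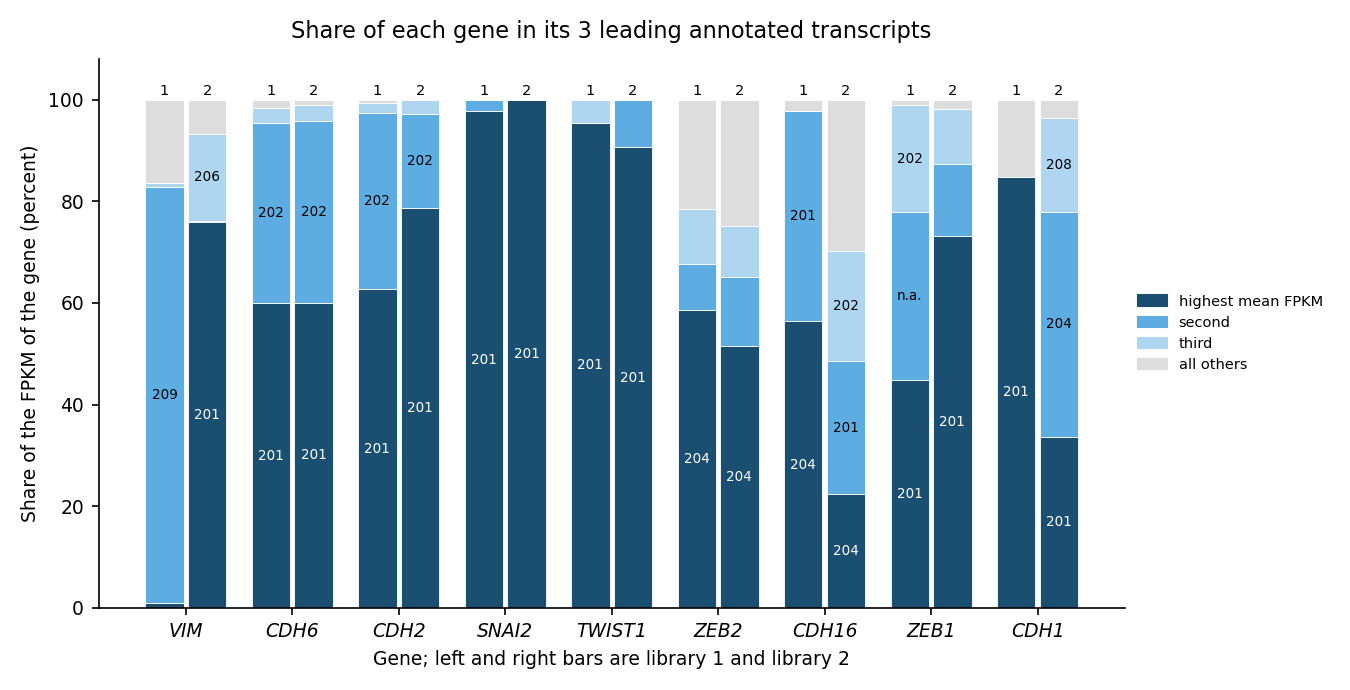
Share of each gene's FPKM in percent that fell to its 3 transcripts of highest mean FPKM and to all others, with library 1 on the left and library 2 on the right of each pair. Numbers inside the bars are the annotation's transcript names, and n.a. marks a transcript with no name in the hg19 annotation. The leading transcript of VIM changes between the libraries, while CDH6 keeps the same division.

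CDH1 was also divided differently by the libraries, at its trace level, though its leading transcript of library 1 did not nearly vanish in library 2. CDH1-201, the canonical coding transcript, was at 0.178 and 0.0956 FPKM, or 84.8% and 33.7% of the gene. CDH16-204 and CDH16-201 led CDH16 with 2.09 and 1.54 FPKM in library 1 and with 0.685 and 0.805 in library 2. ZEB1-201 had 0.547 and 1.27 FPKM. In each of these 3 genes the transcripts named moved by a larger fold between the libraries than the gene total did.

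Genes around these 10 in the same pathways were described from lists of known members. Of 18 other classical and related cadherins, 2 reached 1 FPKM in both libraries, against 58.8% of protein-coding genes. An active promoter was found at 1 of them, against 52.0%. CDH24 was at 23.2 and 22.9 FPKM with an active promoter, CDH17 was at 2.53 and 1.92, and CDH4 followed at 0.383 and 0.474. Of 11 catenins and linkers that tie cadherins to actin, 8 reached 1 FPKM in both libraries, against 58.8% of protein-coding genes, and CTNNA2 and CTNND2 were listed at 0 in both. CTNNA1, alpha-catenin, was at 71.3 and 93.2 FPKM. CTNNB1, beta-catenin, was at 80.3 and 76.1, and VCL, vinculin, was at 66.0 and 64.7.

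Of 9 further transcription factors linked to epithelial-mesenchymal transition, 2 reached 1 FPKM in both libraries, against 58.8% of protein-coding genes. TCF3 was at 27.5 and 24.4 FPKM and SNAI1 (Snail) at 13.0 and 12.0, and both had active promoters. TCF4 followed at 0.868 and 0.893 FPKM, also with an active promoter. SNAI1 was thus above SNAI2 in both libraries, 12.0 FPKM at the least against 10.2 at the most. TWIST2, PRRX1 and GSC were listed at 0 in both libraries, and PRRX1, FOXC2 and KLF8 had bivalent promoters.

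Genes named for the epithelial state were not low as a group. Of 23 epithelial genes, 16 reached 1 FPKM in both libraries with a median of 8.27, and 11 had an active promoter. The keratin genes KRT8, with 179 and 184 FPKM, KRT19, with 123 and 123, and KRT18, with 68.0 and 44.2, led them, and reads of keratin genes may be shared with near-identical pseudogenes. MARVELD3, at 1.46 and 1.37 FPKM, GRHL1, at 1.17 and 1.03, and OVOL2, at 1.15 and 0.985, were bivalent at levels around 1 FPKM, and the class of GRHL1 differed between the replicates. GRHL2, OVOL1 and RAB25 were listed at 0. Of 20 mesenchymal genes, 13 reached 1 FPKM with a median of 10.5, and 10 had an active promoter. FN1, fibronectin, was at 2333 and 2343 FPKM, SPARC at 486 and 477 and TAGLN at 139 and 141. Mesenchymal genes below 1 FPKM in both libraries included ACTA2, at 0.118 and 0.703, MMP2, at 0.114 and 0.0806, and FAP, listed at 0. The median of each list lay above the 3.32 FPKM of protein-coding genes, and the shares at 1 FPKM and with an active promoter were near the 58.8% and 52.0% of all genes.

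**Figure D5:**
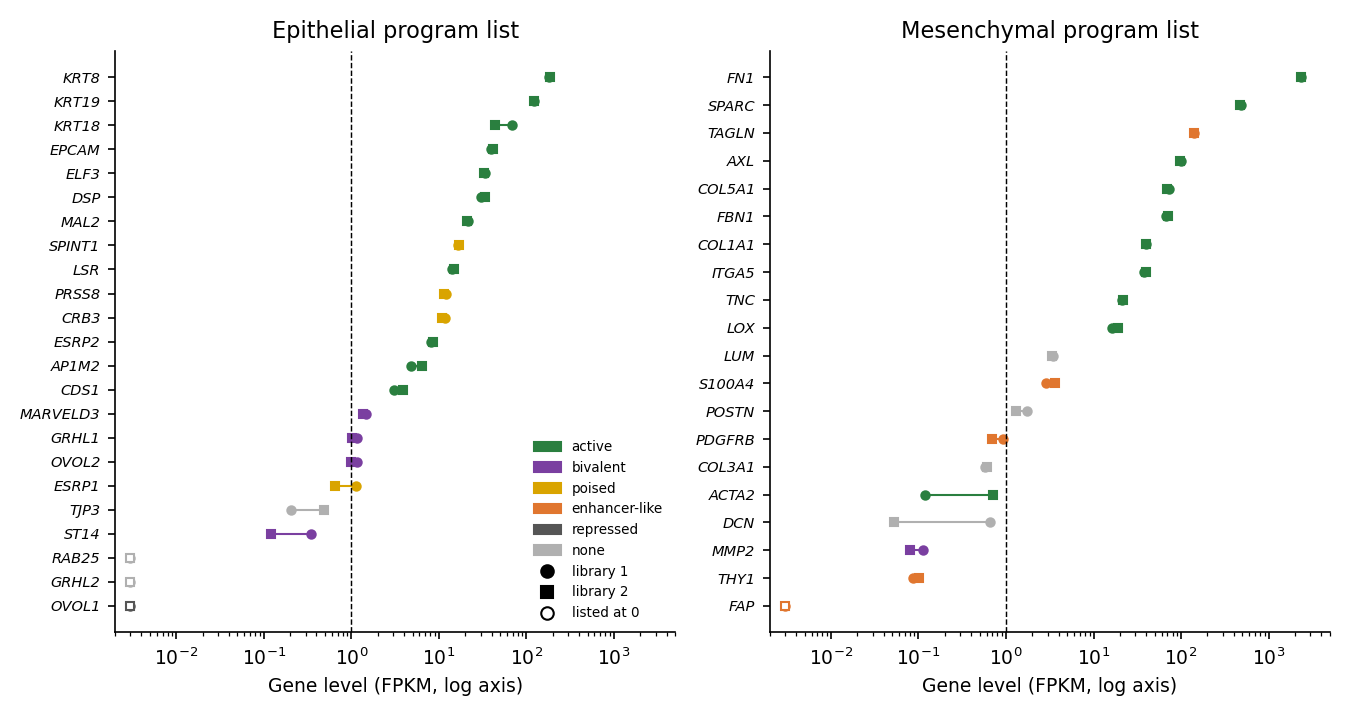
FPKM of each gene of the epithelial and mesenchymal lists on a log axis, with a circle for library 1, a square for library 2, open symbols for values listed at 0 and colours for promoter class. Both lists span from 0 to over 100 FPKM, and FN1 is the highest point of either.

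The mesenchymal list overlaps with markers of fibroblasts, all 6 of which it contains. COL1A1, at 40.3 and 39.9 FPKM, and LUM, at 3.48 and 3.33, were the 2 of them that reached 1 FPKM, and PDGFRB, DCN, COL3A1 and THY1 stayed below it in both libraries. The 6 summed to 46.0 and 44.7 FPKM. Over all protein-coding genes, 58.8% reached 1 FPKM in both libraries. Of the blood cell markers, PTPRC was listed at 0 in both libraries and CD68 was at 42.5 and 36.8. The cells were a culture of 1 line, HK2, and whether any other cell type had a part in the levels of the 10 genes was not tested.

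Genes next to or over the 10 were listed to show which reads and marks they may share. Of 21 overlapping genes, 13 lie on the opposite strand, and 1 of the 16 with an RNA value reached 1 FPKM, the pseudogene DUX4L51 inside CDH6 at 6.56 in both libraries. The antisense genes VIM-AS1, at 0.795 and 0.748 FPKM, and ZEB1-AS1, at 0.665 and 0.655, overlap the promoters of VIM and ZEB1, and ZEB2-AS1 was listed at 0. Whether counting used strand is not given in the sources used here, so reads of a gene and its antisense partner cannot be told apart. ZEB1 itself was at 1.22 and 1.74 FPKM.

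Of the 20 nearest protein-coding genes, 10 reached 1 FPKM in both libraries, against 58.8% of all protein-coding genes. An active promoter was found at 9, against 52.0%. The promoter class of their neighbour among the 10 was shared by 7, a count not set against a share for other genes. CDH3, P-cadherin, ends 9824 bp before CDH1 and was at 0.274 and 0.389 FPKM with a repressed promoter, a class that differed between the replicates. TANGO6, which begins 7994 bp after CDH1, was at 3.63 and 3.37 FPKM with an active promoter. RRAD, 2768 bp upstream of CDH16, was at 23.1 and 22.8 FPKM with an active promoter. HDAC9 ends at 19042039, 18575 bp beyond the far end of the TWIST1 annotation, which runs 96646 bp from the start at 19157259. HDAC9 was bivalent at 1.46 and 2.38 FPKM.

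The microRNAs of the miR-200 family are known to repress ZEB1 and ZEB2 and come from a cluster on chromosome 1 and another on chromosome 12. Their mature sequences, from RefSeq (GRCh38.p14), are shown with the seed, bases 2 to 8, in capitals, because the seed divides the family into a group of 3 and a group of 2.
miR-200b-3p: uAAUACUGccugguaaugauga
miR-200c-3p: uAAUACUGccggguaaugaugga
miR-429: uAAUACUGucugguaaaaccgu
miR-200a-3p: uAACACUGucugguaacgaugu
miR-141-3p: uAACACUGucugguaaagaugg

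The first 3 share a seed and the last 2 share the other. Mature microRNAs were not measured, since the RNA-seq values are those of longer transcripts. On chromosome 1, the cluster of miR-200b, miR-200a and miR-429 (hg19, 1102484 to 1104467) had an H3K4me3 peak within 5 kb in both replicates, from 1099367 to 1102412 and from 1099690 to 1102545. H3K27ac lay there too, from 1098609 to 1106621 and from 1099300 to 1102336, and H3K27me3 was found in neither replicate. On chromosome 12, the cluster of miR-200c and miR-141 (7072862 to 7073354) had no H3K27me3 peak within 5 kb in either replicate, H3K27ac in replicate 1 only, and H3K4me3 peaks that did not overlap between the replicates. The hairpin genes of both clusters were below 1 FPKM in both libraries, and those on chromosome 12 were listed at 0.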

How the data were processed

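HK2 cells were profiled by ChIP-seq of 3 histone marks (2 replicates each) and by RNA-seq (2 libraries, rRNA-depleted RNA); input and HiChIP samples are not analysed here. The authors used Bowtie2 on hg19 and MACS2 on each ChIP-seq replicate. The 6 deposited lists hold a chromosome and 2 limits per peak and no score. The study gives read depth and the share of reads in peaks for each replicate, and these are not used here. Depth differed between replicates. The share in peaks was unequal between replicates for H3K27ac and H3K4me3, and close between replicates but lowest of the marks for H3K27me3. For RNA-seq, the authors used HISAT2 and StringTie 1.3.3 with GENCODE 27 and deposited a value in FPKM and in TPM for each transcript, with GRCh38 coordinates, although the study's methods name hg19 for the RNA-seq mapping. Genes were therefore joined to peaks through their Ensembl identifiers alone. Dividing deposited coverage by FPKM gives 5.67 and 5.52 Gb of aligned sequence for libraries 1 and 2.

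FPKM was summed per gene. Start sites and coordinates were those of GENCODE 44 on GRCh37, on 24 chromosomes. A mark was present where 50% or more of a 200-bp bin lay under peaks in each replicate, within 1 kb of any annotated start site. Classes were assigned in the order active (H3K4me3 with H3K27ac, no H3K27me3), bivalent (H3K4me3 with H3K27me3), poised (H3K4me3 alone), enhancer-like (H3K27ac without H3K4me3), repressed (H3K27me3 alone) and none. Percentiles are the share of protein-coding genes of lower mean FPKM. A value listed at 0 can be a failed estimate. The single test was an exact permutation test over libraries. Rules were tested on simulated peaks. Python 3.11.15, numpy 2.4.6, pandas 2.3.3, scipy 1.17.1 and matplotlib 3.10.9 were used.

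The 10 genes and all lists were chosen with earlier results of these data known. The genes named outside the 10 were the 3 of highest mean FPKM of each list, genes of a list at a mean of 1 FPKM or more with a bivalent or repressed promoter, genes overlapping the 10, and their nearest protein-coding genes. CTNNA2, CTNND2, COL3A1, DCN, THY1, ACTA2, MMP2, FAP, TWIST2, PRRX1, GSC, FOXC2, KLF8, GRHL2, OVOL1, RAB25, LRP2, SLC22A6 and SLC22A8 were named after their values were seen. Some promoter sequences and 1 listed gene are not reported here.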

Additional observations from a re-analysis of the deposited data

How the results depend on the processing

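The 3 summaries of RNA level, the CDH2 to CDH1 ratio among them, and the 3 counts of chromatin marks were recomputed under 38 alternatives. Of these, 34 stayed within 1 SD, within 1.5 times the count or, for the ratio, in the same direction. Some of these outcomes were fixed in advance. A mean of 2 libraries moves by less than 1 SD when 1 is left out, and the ratio is the same in TPM as in FPKM. A ratio this large could hardly change direction, so the 34 do not measure robustness. Raising the threshold to 5 FPKM left 4 of the 10 genes. The median of the 10 genes was 11.1 in TPM, a unit with another scale, and 3.58 FPKM with coding transcripts only. At the single 5′-most start site, 1 gene kept H3K27me3 in both replicates. Leaving out 1 RNA-seq library gave medians of 3.83 to 4.20 FPKM, log2 ratios of 7.72 to 8.14 and 8 genes at 1 FPKM either way. Leaving out 1 ChIP-seq replicate gave 7 to 8 active promoters, 2 to 3 genes with H3K27me3 at a start and 9 with H3K27ac over the gene body. The classes of 7 genes were the same under every setting, and those of CDH11, CDH16 and ZEB2 were not. No paired analysis was possible because the design has 1 condition and no groups of samples are compared; the CDH2 to CDH1 ratio itself was taken within each library. The peak lists carry no depth, so a missing peak does not show that a mark is absent, and the levels of CDH1 and CDH11 rest on 5.00 kb of aligned sequence at most in either library.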
